A study of Rattus norvegicus with 7 samples.

Results

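*Chgb*, *Plat* and *Cbarp* are 3 of the 32754 genes counted in rat adrenal gland, brought together here because each of them bears on regulated secretion and stands in the study's list of genes that differed after chronic shock (CS). The choice therefore used the read counts of these same libraries. None of the 3 stands in the study's list for chronic variable stress (CVS). *Cbarp* and *Plat* had in addition been selected by the study for their difference between CS and CVS. The CS values of the 3 genes are accordingly given as a description, and nothing is read from whether a fit called them. The comparison given with its test is CVS against control.

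RNA came from adrenal glands of male Sprague-Dawley rats in 3 groups of 3, 2 and 2 libraries: control, CVS and CS. The stress protocols ran for 3 weeks, typically from postnatal day 28 to 49, and animals were killed on day 50 to 51. Control rats lived 3 to a cage and were weighed daily. CVS rats met a changing sequence of physical, psychological and social stressors, which also included shock, restraint, forced swim, cold, predator threat and periods of isolation. They were otherwise housed in groups. CS rats lived singly on the metal grid of the shock apparatus, in a room of their own, and received unpredictable foot shocks of up to 3 mA. Shock, single housing, grid floor and room therefore cannot be told apart in the CS libraries. The study also measured *Plat* and *Cbarp* by qPCR, joined with other genes in an index, in further groups without shock. That index was above control in singly housed, grid-housed and CS rats, and not different from control in CVS rats. It was higher in the grid-housed and CS groups than with single housing alone. *Chgb* was not in that index. Each library was a pool of RNA from 8 to 9 animals, and the spread between libraries is that between pools of rats.

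The chromaffin cells of the adrenal medulla store catecholamines, neuropeptides and granin proteins in dense-core granules and release them when calcium enters through voltage-gated channels. *Chgb* encodes chromogranin B, a granin that is a main soluble protein of these granules. *Plat* encodes tissue plasminogen activator, a serine protease that turns plasminogen into plasmin and that chromaffin cells keep in their granules and secrete. *Cbarp* encodes a membrane protein that binds the beta subunits of voltage-gated calcium channels and lowers their current, and with it calcium-triggered exocytosis. The adrenal gland also holds a steroid-producing cortex, and the RNA here was from the whole gland, so that fewer cells of a type and less RNA per cell cannot be told apart.

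The sequence just before the start of each gene is shown because it is the stretch where transcription of the gene is set up. RefSeq windows were found for 2 of the 3 genes. The *Chgb* window lies on the plus strand of chromosome 3 (GRCr8 chr3:140496462-140496711). The *Cbarp* window lies on the plus strand of chromosome 7 (GRCr8 chr7:10217103-10217313) and stops after 211 bases, where the annotated gene begins. For *Plat* only the name is given. Capitals mark the motifs found by a search of both strands.
Chgb: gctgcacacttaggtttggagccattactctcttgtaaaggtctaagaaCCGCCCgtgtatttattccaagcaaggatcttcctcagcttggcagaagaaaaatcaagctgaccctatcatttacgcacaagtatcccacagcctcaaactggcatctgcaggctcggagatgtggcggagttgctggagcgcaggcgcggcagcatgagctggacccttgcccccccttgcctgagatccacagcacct
Cbarp: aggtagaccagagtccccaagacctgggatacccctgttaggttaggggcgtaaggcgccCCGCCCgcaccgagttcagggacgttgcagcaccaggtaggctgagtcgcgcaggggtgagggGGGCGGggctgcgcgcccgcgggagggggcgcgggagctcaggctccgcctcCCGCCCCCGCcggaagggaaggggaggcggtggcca

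The *Chgb* window had a GC content of 53.6% and 8 CpG dinucleotides, close to the median of 51.2% and 5 over the 33469 RefSeq windows of 250 bases. The *Cbarp* window was richer, with a GC content of 73% and 20 CpG dinucleotides. The GC box GGGCGG occurred 1 time before *Chgb* and 3 times before *Cbarp*, and in 30.5% of all windows. The Egr1 motif GCGGGGGCG occurred 1 time before *Cbarp*, where it overlaps a GC box, and in 2.45% of all windows. Neither window held the cyclic AMP response element TGACGTCA (1.59% of all windows) or its part TGACG (18.2%), the full palindromic glucocorticoid response element (0.012%) or its part AGAACA (17.5%), the steroidogenic factor and Nr4a1 motif AAGGTCA (3.99%), the E box CACGTG (5.59%) or the TATA box TATAAA (12.9%). A second RefSeq window of *Cbarp* held no match to any motif searched. These matches describe letters in the reference and not sites in use in the gland.

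Between 20095746 and 32242123 reads were counted to genes per library, with ranges that overlapped between groups (23673320 to 32242123 in control, 20095746 and 31149255 in CVS, 26686099 and 31057275 in CS). Levels are given as normalized CPM, the counts of a gene relative to a library total scaled by the TMM method of edgeR, and are not divided by gene length, so that they compare libraries for 1 gene and not genes with each other. The test covered 13892 genes that reached 10 counts in each of the 7 libraries, and all 3 genes passed that filter. The library codes in the labels begin with DM6 (control 1, CVS 1 and CS 1), DM8 (control 2 and CVS 2) or DM10 (control 3 and CS 2). Whether this marks a cohort or a sequencing run is not given in the sources used here, and values within a code prefix stand beside the pooled ones. None of the 12 chromaffin cell markers, such as the genes for catecholamine-synthesizing enzymes, could be matched to a gene identifier here, so the share of medulla in each pool was not measured.

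*Chgb* (ENSRNOG00000021269) was the granule protein of the 3 and took 0.104% to 0.157% of all counts in a library. Its normalized CPM was 1093, 1164 and 1233 in control libraries 1 to 3, 1194 in CVS 1 and 1049 in CVS 2, and 1566 in CS 1 and 1500 in CS 2. Both CS libraries lay above the other 5, and CVS 1 lay inside the control range and CVS 2 below it. The group means were 1163 ± 70.1 (SD, n = 3) in control, 1122 ± 103 (SD, n = 2) in CVS and 1533 ± 46.2 (SD, n = 2) in CS. The CS mean was 1.32 times the control mean and 1.37 times the CVS mean, and the lower CS library was 1.22 times the highest of the others. With 20816 to 48901 counts per library, counting error was at most 0.693% of the value, far below the spread between libraries.

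*Plat* (ENSRNOG00000019018), the secreted protease, was at 20.2, 22.7 and 23.3 normalized CPM in control libraries 1 to 3. It was at 19.9 in CVS 1, 21.5 in CVS 2, 33.7 in CS 1 and 47.1 in CS 2. The CVS libraries overlapped the control range, whereas the CS libraries lay above the other 5 and stood well apart from each other. The means were 22.1 ± 1.65 (SD, n = 3) in control, 20.7 ± 1.13 (SD, n = 2) in CVS and 40.4 ± 9.45 (SD, n = 2) in CS. The CS mean was 1.83 times the control mean and 1.95 times the CVS mean. The lower CS library, CS 1, was 1.44 times the highest of the others. Counts of 426 to 1199 per library gave a counting error of 2.89% to 4.85%, which is smaller than the gap between the CS libraries.

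*Cbarp* (ENSRNOG00000024349), the calcium channel regulator, was at 13.3, 17.5 and 15.8 normalized CPM in control libraries 1 to 3. It was at 12.7 in CVS 1, 14.6 in CVS 2, 30.1 in CS 1 and 40.5 in CS 2. As for *Plat*, CVS overlapped control, both CS libraries lay above all others, and CS 2 was the higher of the CS pair. The means were 15.5 ± 2.13 (SD, n = 3), 13.6 ± 1.32 (SD, n = 2) and 35.3 ± 7.31 (SD, n = 2) in control, CVS and CS. The CS mean was 2.27 times the control mean and 2.59 times the CVS mean, and the lower CS library was 1.72 times the highest of the others. Counts ranged from 289 to 1031, and counting error from 3.11% to 5.88%.

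**Figure D1:**
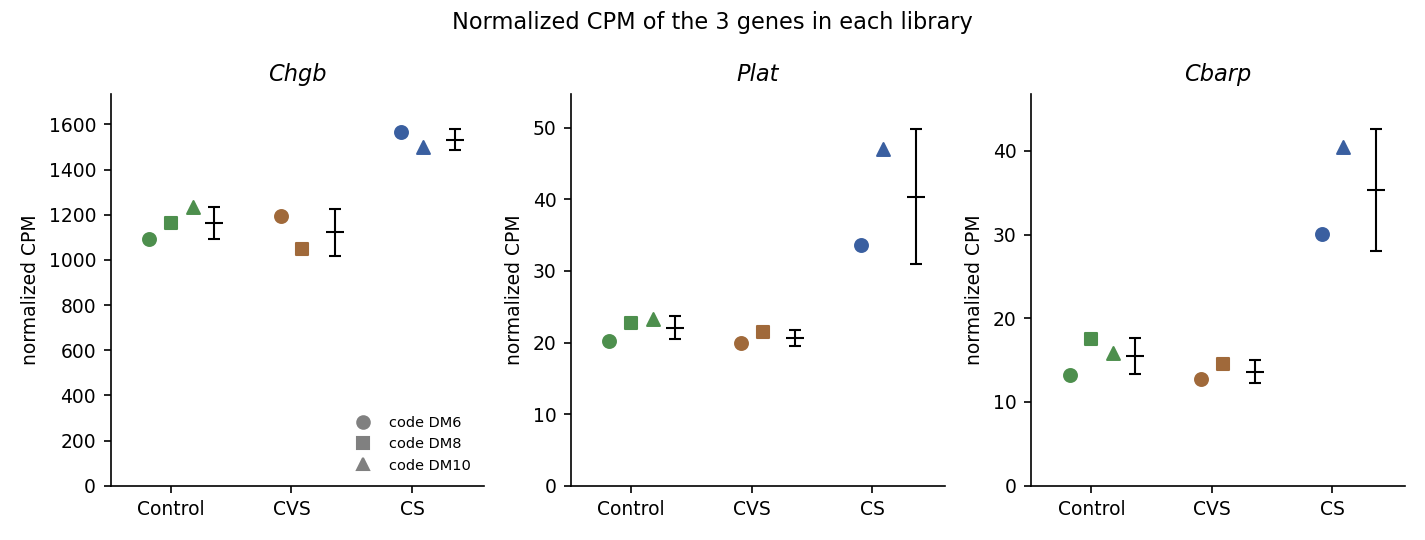
Normalized CPM of *Chgb*, *Plat* and *Cbarp* (vertical axes from 0) in each of the 7 libraries by group, with marker shapes for the library code prefix and black bars for the group mean ± SD (n = 3, 2 and 2). In all 3 panels the CS libraries lie above the other 5 and the CVS libraries overlap the control range, and for *Plat* and *Cbarp* the CS libraries are spread apart (33.7 and 47.1, and 30.1 and 40.5).

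All 3 genes were above the other 5 libraries in both CS libraries, a pattern that 7.75% of all genes tested had and that the choice of these genes favored. CS lay above control without overlap in 12.9% of genes, and CS lay above all the others while CVS overlapped control, as here, in 5.66%. Relative to control, the edgeR fit gave log2 fold changes in CS of 0.40 (SE 0.089) for *Chgb*, 0.87 (SE 0.15) for *Plat* and 1.19 (SE 0.16) for *Cbarp*. Ordered by the size of this change among the 13892 genes, *Cbarp* was at place 59, *Plat* at place 177 and *Chgb* at place 1307. Relative to CVS, the log2 fold changes in CS were 0.45 (SE 0.11), 0.96 (SE 0.17) and 1.37 (SE 0.17), at places 1150, 100 and 23. At an adjusted p under 0.05 (quasi-likelihood test of edgeR, Benjamini-Hochberg over all genes), 29 genes or 0.209% were called in CS against control, of them 21 or 0.151% higher in CS. *Cbarp* was among them and *Plat* and *Chgb* were not, from which nothing is read, since the choice of the 3 genes used this contrast. With the replicate number as a block, by which the libraries were taken as paired, 418 of the 13892 genes were called. All 3 genes were among them, from which again nothing is read. No gene was called in CS against CVS at an adjusted p under 0.1 (0% of those tested, with 1020 genes at an unadjusted p under 0.05, edgeR), whereas DESeq2's Wald test called 45 and the edgeR fit with the replicate block 843.

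Within a code prefix the order was the same as in the pooled values. On the log2 scale, CS 1 exceeded control 1 by 0.52 for *Chgb*, 0.74 for *Plat* and 1.18 for *Cbarp*. CS 2 exceeded control 3 by 0.28, 1.01 and 1.36 in the same order. CS 1 exceeded CVS 1 by 0.39, 0.76 and 1.24. *Chgb* thus had the larger difference in the DM6 pair, and *Plat* and *Cbarp* in the DM10 pair.

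The CVS comparison is the one given with its test, since the CVS libraries were not used to pick *Chgb*, although earlier results of all groups were known. The study's CVS list came from these same libraries and held none of the 3, so the lack of a call could be foreseen. For *Plat* and *Cbarp* the CVS comparison is not independent of the choice, and the control libraries are shared with the CS comparison. None of the 3 genes was called in CVS against control, where 13 genes or 0.0936% were, 12 of them (0.0864%) lower in CVS. *Chgb* had a log2 fold change of -0.052 (95% interval -0.28 to 0.17, adjusted p = 0.993, edgeR), which leaves room for a level between 0.825 and 1.13 times that of control. *Plat* had a log2 fold change of -0.096 (95% interval -0.35 to 0.16, adjusted p = 0.978, edgeR), a level between 0.785 and 1.12 times. *Cbarp* had a log2 fold change of -0.19 (95% interval -0.53 to 0.16, adjusted p = 0.932, edgeR), a level between 0.693 and 1.11 times. The intervals do not show that CVS left the genes alone. With the replicate block 817 of the 13892 genes were called in CVS, none of the 3 among them.

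For *Chgb* the sign in CVS differed between pools, and for *Plat* and *Cbarp* it was the same in both. Over the 6 pairings of a CVS with a control library, CVS was the higher in 2 for *Chgb*, 1 for *Plat* and 1 for *Cbarp*. Within the code prefix, *Chgb* was 0.13 higher in CVS 1 than in control 1 and 0.15 lower in CVS 2 than in control 2 on the log2 scale (0.13 and -0.15). *Plat* was at -0.025 and -0.080 in the same pairs, and *Cbarp* at -0.061 and -0.26. Adding the replicate number to the fit brought none of the 3 past the threshold in CVS. The code prefix groups the control and CVS libraries in the same way, so adding it gave the same fit.

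**Figure D2:**
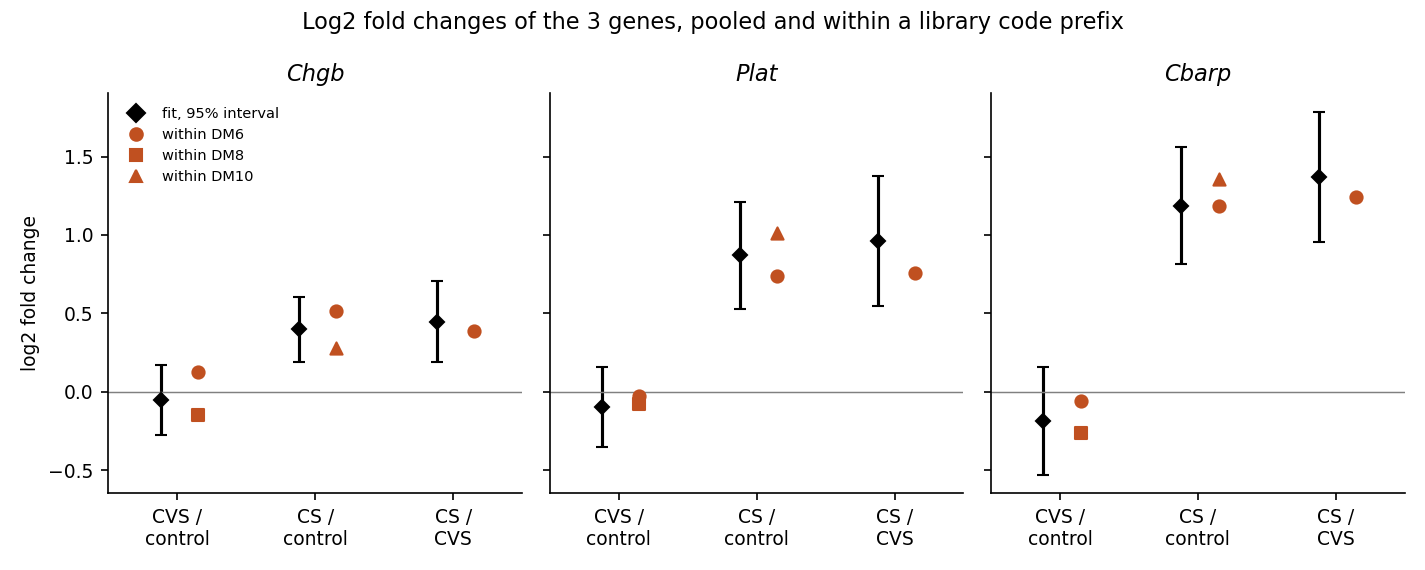
Log2 fold changes (vertical axis) of *Chgb*, *Plat* and *Cbarp* in the 3 comparisons, with the edgeR estimate and its 95% interval as black diamonds and bars and the log2 ratio of single libraries with the same code prefix as orange markers. The CVS estimates (-0.052, -0.096 and -0.19) have intervals that include 0, and the CS estimates against control rise from 0.40 to 0.87 and 1.19 across the panels.

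The difference in CS was not of the same size for the 3 genes. The study had selected *Cbarp* and *Plat*, but not *Chgb*, for their difference between CS and CVS, which favored larger CS values in them. How often other gene pairs differ so was not computed. In each library the log2 ratio of one gene to another was computed and set against its mean in the control libraries, a measure chosen after the data had been seen. *Plat* relative to *Chgb* was 0.18 in CS 1 and 0.72 in CS 2, with the control libraries between -0.037 and 0.041 and the CVS libraries at -0.19 and 0.11. *Cbarp* relative to *Chgb* was 0.54 and 1.02 in CS, with control between -0.13 and 0.18 and CVS at -0.32 and 0.066. *Cbarp* relative to *Plat* was 0.35 in CS 1 and 0.30 in CS 2, with control between -0.093 and 0.14 and CVS at -0.13 and -0.043. In both CS libraries *Cbarp* therefore exceeded *Plat*, and *Plat* exceeded *Chgb*, in its difference from control, and the CS libraries lay above the range of the others for each ratio.

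**Figure D3:**
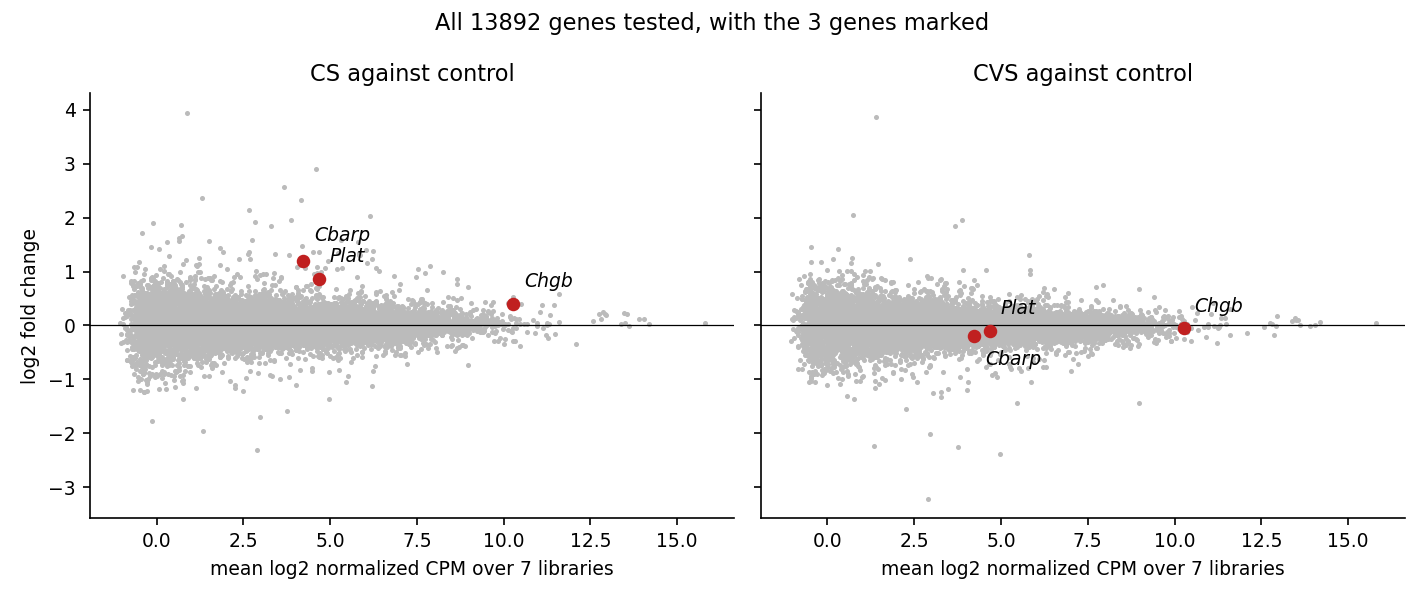
Log2 fold change (vertical axis) against mean log2 normalized CPM over the 7 libraries (horizontal axis) for the 13892 genes tested (grey), with *Chgb*, *Plat* and *Cbarp* in red, in CS against control (left) and CVS against control (right). In CS *Cbarp* (1.19) and *Plat* (0.87) lie higher than *Chgb* (0.40), and in CVS all 3 lie between -0.19 and -0.052.

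Markers of other cell types could be named only where the study had listed them as differing in these libraries. That the named ones differ was therefore set by the naming, and they are no sample of their cell types. The summed normalized CPM of the 5 adipocyte markers that could be named, of 8 in the list, was 29.9, 26.8 and 42.6 in control libraries 1 to 3, 54.7 and 49.3 in CVS, and 77.6 and 89.6 in CS. It was thus highest in the CS libraries, as were the 3 genes, and higher in CVS than in control, where the 3 genes overlapped. The markers summed were *Adipoq*, which encodes the fat hormone adiponectin, *Retn*, which encodes resistin, *Fabp4*, *Plin1* and *Cidec*. The sum of 2 named cortical markers of 13, *Cyp11b2* for aldosterone synthase and *Scarb1* for the HDL receptor, was 4070 to 4975 in control, 5199 and 6313 in CVS, and 6277 and 6502 in CS. These markers differed in order. The means in control, CVS and CS were 1900, 2526 and 2460 for *Cyp11b2*, and 2630, 3230 and 3929 for *Scarb1*. The 1 named neuronal marker of 7, *Tubb3*, was at 68.0 to 72.2 in control, 39.9 and 40.9 in CVS, and 42.2 and 65.5 in CS. The 1 named marker of Schwann and sustentacular cells of 8, *S100b*, was at 14.6 to 17.7 in control, 26.8 and 29.5 in CVS, and 19.8 and 17.9 in CS. Neither followed the order of the 3 genes. No marker of endothelial cells, leukocytes or fibroblasts could be named. The part of other cell types in the values of *Chgb*, *Plat* and *Cbarp* was not tested.

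Around the 3 genes, 6 lists of secretion genes with 164 members in all were drawn up, covering granule cargo, granule processing, catecholamine handling, calcium channels, exocytosis and the plasminogen system. Only 9 of the 164 could be matched to an identifier, each because the study had listed it as differing in these libraries, so their values are no sample of the pathways. That listing also favored calls among the 9. Nothing is therefore read from the number called or from the p-values given below for these genes. In CS against control 2 of the 9, *Cbarp* and *Ptprn*, rose at an adjusted p under 0.05 and none fell, beside 0.151% higher among all genes tested, and *Cbarp* was chosen from this contrast. DESeq2 called 5 of the 9 in CS, beside 192 of the 13892 genes tested. The fits without any 1 control library called 0 of the 9, beside 1 to 4 of all genes. In CVS against control 1 of the 9, *Slc6a2*, fell and none rose, beside 0.0864% lower among all genes. DESeq2, the replicate block and the fit without the filter each called 5 of the 9 in CVS, 2 higher and 3 lower. Over all genes tested, DESeq2 called 121 and the block 817 of 13892, and the fit without the filter 151 of 22425. The calcium channel list held *Cbarp* alone of 26 genes, so channel subunits could not be set beside it.

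Among genes of the granule itself, *Ptprn*, which encodes the granule membrane protein IA-2, was at 29.3, 29.7 and 30.4 normalized CPM in control, 35.4 and 35.2 in CVS, and 47.9 and 47.7 in CS. The 3 groups did not overlap. Over all genes tested, CS lay above control without overlap in 12.9%, and CVS above or below control in 22.3%. *Ptprn* rose in CS by 0.68 on the log2 scale (SE 0.084, adjusted p = 0.0319, edgeR), and in CVS its log2 fold change was 0.25 (adjusted p = 0.601, edgeR). Its call in CS was lost when any control library or CS 2 was left out. *Pdyn*, which encodes the opioid peptide precursor prodynorphin, was at 40.2, 38.8 and 47.1 in control, 54.4 and 64.4 in CVS, and 46.6 and 39.8 in CS. The order for *Pdyn* was thus unlike that for *Chgb*, with the CVS libraries highest and the CS libraries inside the control range, and its log2 fold change in CVS was 0.50 (adjusted p = 0.312, edgeR).

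*Slc6a2*, which encodes the noradrenaline transporter, was at 35.3, 37.5 and 37.8 normalized CPM in control, 18.4 and 21.9 in CVS, and 29.1 and 25.4 in CS. Both stressed groups lay below control. Over all genes tested, CVS lay above or below control without overlap in 22.3%. The share with CS below control, or with both groups below it, was not computed. In CVS *Slc6a2* fell by 0.88 on the log2 scale (adjusted p = 0.0488, edgeR), whereas the CS value was -0.44 (adjusted p = 0.226, edgeR). The CVS call was lost without any 1 of the control libraries, without CVS 1, with the DESeq2 size factors and with the legacy calculation of edgeR off.

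The exocytosis genes that could be named were *Sytl4*, for the granule-docking protein granuphilin, and *Vamp1*, for a vesicle SNARE protein of membrane fusion. *Sytl4* was at 40.0 to 50.8 in control, 66.0 and 61.2 in CVS, and 56.9 and 49.3 in CS. *Vamp1* was at 52.8 to 62.0 in control, 45.0 and 39.2 in CVS, and 56.4 and 57.5 in CS. For both the CVS libraries lay outside the control range, *Sytl4* above and *Vamp1* below it. CVS lay outside it on either side in 22.3% of all genes tested. The log2 fold changes of *Sytl4* and *Vamp1* in CVS were 0.49 and -0.46 and did not pass (adjusted p = 0.297 and 0.299, edgeR). In CS their log2 fold changes were 0.23 and -0.030.

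**Figure D4:**
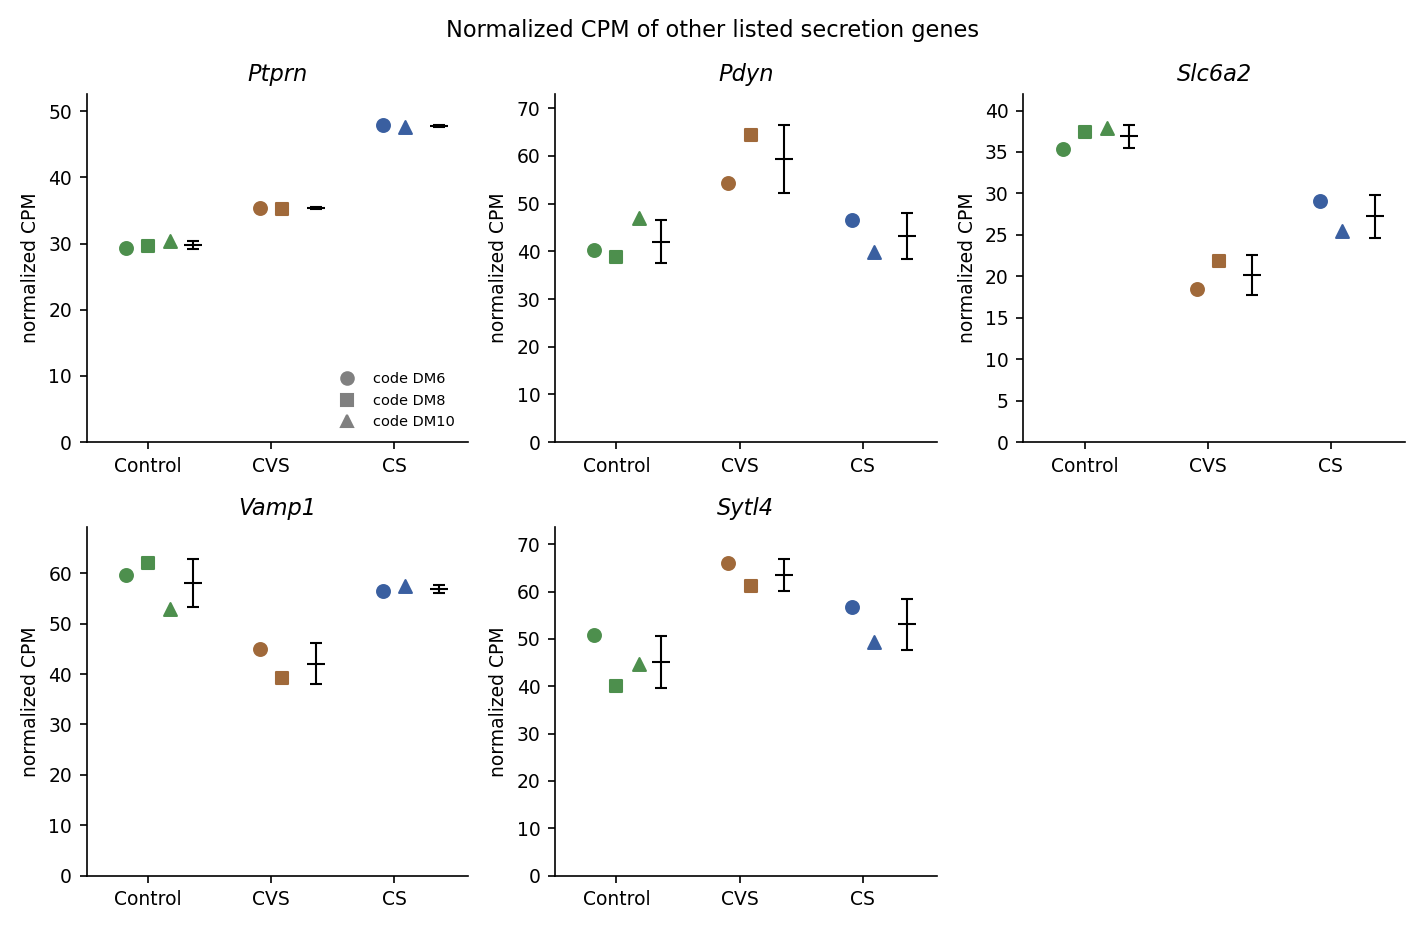
Normalized CPM (vertical axes from 0) of *Ptprn*, *Pdyn*, *Slc6a2*, *Vamp1* and *Sytl4* in each library by group, with marker shapes for the library code prefix and black bars for the group mean ± SD (n = 3, 2 and 2). Of these 5 genes *Ptprn* shows the CS libraries well above the rest (47.9 and 47.7), whereas *Pdyn* and *Sytl4* are highest in CVS and *Slc6a2* and *Vamp1* lowest in it.

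Likeness to each gene was measured as Pearson's r of log2 normalized CPM over the 7 libraries, which share the group differences that chose the genes, and is given as a description. *Plat* and *Cbarp* had an r of 0.988 with each other. Among the 13891 other genes, *Cbarp* was at place 3 for likeness to *Plat*, and *Plat* at place 2 for likeness to *Cbarp*. *Chgb* was less like either, with an r of 0.872 to *Plat* and 0.891 to *Cbarp*. In both the CS and the CVS pair, the library that was the higher for *Plat* and *Cbarp* was the lower for *Chgb*.

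Names were available for 257 of the compared genes, again those the study had listed. Of these, the gene most like *Plat* was *Dgat1* (r 0.993), which encodes an enzyme of triglyceride synthesis and was at 38.2 to 55.0 normalized CPM in control, 45.1 and 52.9 in CVS, and 131 and 261 in CS. It was followed by *Cbarp*, *Emd* for the nuclear envelope protein emerin (0.988), *Fabp5* for a fatty acid-binding protein (0.986) and *Ldah* for a lipid droplet hydrolase (0.983). The genes most like *Cbarp* after *Plat* were *Dgat1* (0.984), *Ldah* (0.980), *Lmbr1* (0.971) and *Aloxe3*, which encodes a lipoxygenase (0.967). For *Chgb* they were *Lmbr1* (0.952), *Bop1* for a factor of ribosome assembly (0.948), *Adamts9* for a secreted metalloprotease (0.947), *Eprs* for an aminoacyl-tRNA synthetase (0.947) and *Rnf225* (0.933). *Lmbr1* was the gene named for both *Chgb* and *Cbarp*, at 14.1 to 16.9 in control, 14.7 and 16.3 in CVS, and 30.8 and 34.2 in CS.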

How the data were processed

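Whole adrenal glands were analysed by RNA sequencing in 7 pooled libraries. From poly(A) RNA and strand-keeping libraries, the authors mapped reads to Rnor_6.0 with Rsubread and deposited raw counts per Ensembl gene from featureCounts. The strand setting and annotation release are not given in the sources used here, so overlapping genes may share reads. Gene symbols came from the study's supplementary lists alone (276 identifiers, 260 of whose symbols were also known to RefSeq), and other genes stayed unnamed. The 3 genes and the gene lists were chosen with earlier results of these data known.

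Counts were compared with edgeR 4.0.16 (limma 3.58.1, R 4.3.3), using TMM, estimateDisp and the quasi-likelihood functions glmQLFit and glmQLFTest at their defaults, fitted to the 2 groups compared, for genes that reached 10 counts in each of the 7 libraries, with Benjamini-Hochberg adjustment over all 13892. The threshold for a call was an adjusted p of 0.05 (0.1 for CS against CVS). Such p-values judge the difference between groups against the spread between pools within groups. DESeq2 1.42.0, the study's tool, was an alternative, with its size factors in edgeR, no filter, the legacy calculation off, a term for replicate number or code prefix, 1 fit of all libraries, and each library left out. Log2 levels used 0.5 added counts. The scripts were tested on simulated data. Named genes were the 3, every called gene and the 2 of smallest p among the named members of each list, and the 5 most like each of the 3. Cell type markers are given as sums. Same-numbered libraries deviated together from their group means (r of 0.213 to 0.466 across genes in 6 pairs, mirror images within groups of 2) and were taken as paired, from the data alone. Libraries with the same code prefix did so in nearly the same range (r of 0.194 to 0.466 in 5 pairs). All of these pairs except CS 2 with control 3 also share a number, so the likeness of the ranges was largely given. CS 2 shares its number with control 2 (r 0.213) and CVS 2 but its prefix with control 3 (r 0.194). These values do not decide between pairing by number and by prefix. Promoter windows are from RefSeq on GRCr8, another build than the counts. Python 3.11.15, numpy 2.4.6, pandas 2.3.3 and matplotlib 3.10.9 were used. The values of 1 listed gene are not reported here.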

Additional observations from a re-analysis of the deposited data

Results flagged for a closer look

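For *Plat* and *Cbarp*, both CS libraries lay above the control mean and both CVS libraries below it. The log2 fold change of CS against CVS was 0.963 for *Plat* and 1.37 for *Cbarp*. No test of this difference is given, because the study had selected both genes for it. The same pattern was present in 863 of the 13892 genes tested, or 6.21%. The CVS values of both genes overlapped those of the control libraries, and neither gene was called in CVS against control.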

How the results depend on the processing

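The calls depended on the setting more than the sizes did, and the causes were not tested. In CS against control, 29 genes were called, of them 2 in the secretion lists. These counts were 192 and 5 with DESeq2, 232 and 4 without the filter, 527 and 5 with the code prefix as a term, 580 and 5 with all 7 libraries and the prefix, and 1 to 83 and 0 to 2 with a library left out. In CVS against control, 13 and 1 became 121 and 5 with DESeq2, 7 and 0 with its size factors, 151 and 5 without the filter, 6 and 0 with the legacy calculation off, 817 and 5 with the prefix, 257 and 5 with all 7 libraries and the prefix, and 0 to 16 and 0 to 1 with a library left out (0 in edgeR without control 3, with 623 at an unadjusted p under 0.05). In CS against CVS, 0 and 0 became 45 and 2 with DESeq2, 391 and 7 without the filter, 287 and 6 with all 7 libraries and the prefix, and 0 to 86 and 0 to 2 with a library left out (86 without CS 1).

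Pairing by replicate number as a block gave 418 genes and 4 list genes in CS against control, 817 and 5 in CVS against control, and 843 and 9 in CS against CVS, on 1 residual degree of freedom in CS against control. With the block, the log2 fold changes in CS against control were 0.44 for *Chgb*, 0.89 for *Plat* and 1.20 for *Cbarp*. In CVS against control they were -0.010, -0.052 and -0.16, and none of these CVS values passed the threshold.

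The sign of the CS values of *Chgb*, *Plat* and *Cbarp* was the same under every alternative run. *Plat* ranged from 0.606 (without CS 2) to 1.09 (without CS 1) in CS against control and from 0.701 to 1.19 in CS against CVS with a library left out. *Chgb* in CVS ranged from -0.149 to 0.0363, above 0 without CVS 2 alone. None of the 3 was called in CVS in any of the 14 settings. Among these 14, the terms for replicate number and code prefix were the same fit in CVS against control. Where 1 library was left in a group, it was assumed to vary like the others. The code prefix as a term in CS against CVS alone left no residual degrees of freedom, and ratios to chromaffin markers were not run, since none could be named. With 2 pools in a stressed group, spread between pools limits the precision. For *Chgb* in CVS this spread (SD 9.14% of the mean) was well above counting error (at most 0.693%). For *Plat* in CVS it was 5.48%, not far above the counting error of 3.98% and 4.85%.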
